A study of Mus musculus with 12 samples.

Results

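The genes described here carry the machinery by which a T cell holds, activates and senses TGF-beta, a cytokine that restrains immune responses. They are 10 genes of the 55450 in the deposited table, picked by symbol for their roles: the latent TGF-beta anchor Lrrc32, the activating integrin chains Itgb8 and Itgav, the ligand Tgfb1, the receptors Tgfbr1, Tgfbr2 and Tgfbr3, and the signal transducers Smad2, Smad3 and Smad7. The choice was made with earlier results of these data known. Each symbol matched 1 row of the table, and all 10 passed the filter on low counts.

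RNA was sequenced from 3 CD4+ populations of mouse thymus, with 4 libraries each. Eos+ Tregs were sorted as Foxp3+ cells that carry both Ccr6 and Cxcr4, Eos- Tregs as Foxp3+ cells that carry neither, and conventional T cells (Tconv) as Foxp3- cells. The mice behind all 3 populations, Tconv included, were CD4-Cre x Foxp3-GFP; their Cre is driven by Cd4 sequences and green fluorescence marks cells that express Foxp3, and no age or target allele of the Cre was given in the sources used here. Ikzf4 encodes Eos, a transcription factor, and the gate that names the Eos+ and Eos- groups used surface receptors, not Eos itself; the labels do not say whether the replicates came from separate animals, so the p-values speak only of the spread among these libraries, and that spread may be technical.

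TGF-beta is secreted in a latent form, folded into its own propeptide. GARP, the protein of Lrrc32, tethers the latent complex to the Treg surface, and the integrin made of the alpha-v chain (Itgav) and the beta-8 chain (Itgb8) binds the propeptide and sets the cytokine to work. Active TGF-beta binds the type II receptor, which recruits and phosphorylates the type I receptor; the type I receptor then phosphorylates Smad2 and Smad3, which act in the nucleus with Smad4, while Smad7 shuts the receptor down. In the thymus TGF-beta signals favour the survival and development of Tregs, and at epithelial sites they induce the integrin chain CD103.

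Levels are given as CPM, read counts scaled to a common library size with TMM factors, and do not correct for gene length. Library totals ran from 23.9 to 37.9 M expected counts. Ikzf4 stood at 292 to 334 CPM in Eos+ Tregs, 155 to 181 CPM in Eos- Tregs and 22.7 to 27.4 CPM in Tconv. Of the genes of the gate, Ccr6 stood at 227 to 263 CPM in Eos+ Tregs, 10.4 to 19.7 CPM in Eos- Tregs and 1.08 to 4.22 CPM in Tconv. Cxcr4 RNA overlapped between the 2 Treg populations, at 25.2 to 52.9 CPM in Eos+ Tregs and 22.7 to 42.3 CPM in Eos- Tregs. In Tconv it was 7.27 to 20.5 CPM. The summed level of 4 Treg markers was 1494 to 2486 CPM in Eos+ Tregs, 1072 to 2207 CPM in Eos- Tregs and 83.9 to 98.5 CPM in Tconv. That of 6 general T cell markers was 5069 to 5533 CPM in Eos+ Tregs, 5963 to 6477 CPM in Eos- Tregs and 6896 to 7286 CPM in Tconv. In Eos+ Tregs 5 of the 6 were called lower than in Tconv and none higher, beside 13.1% and 17.4% of all genes tested. Against Eos- Tregs 2 of the 6 were called lower and none higher, beside 6.46% and 9.95%. In Eos- Tregs 2 were called lower than in Tconv and 1 higher, beside 5.98% and 8.89%. The part of this difference in the results was not tested. Foxp3 itself was low in the Treg libraries numbered 1, at 55.0 CPM in Eos+ Tregs and 53.3 CPM in Eos- Tregs, against 485 to 862 CPM in the other Treg libraries. The libraries numbered 1 also held the highest summed level of 6 markers of CD4+CD8+ double-positive thymocytes in both Treg populations, 297 CPM in Eos+ Tregs and 325 CPM in Eos- Tregs, against 29.7 to 153 CPM in the other Treg libraries; Tconv held 259, 284, 69.0 and 76.3 CPM in replicates 1 to 4. The part of such cells in the results was not tested; as RNA was pooled over sorted cells, fewer cells with a transcript and less of it per cell cannot be told apart.

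Lrrc32, Itgb8 and Itgav, whose products hold or activate latent TGF-beta, were higher in both Treg populations than in Tconv, and higher again in Eos+ than in Eos- Tregs. Lrrc32 (ENSMUSG00000090958.2, chromosome 7, 98489283 to 98502181, plus strand, GRCm38) had 376, 442, 520 and 559 CPM in Eos+ Treg replicates 1 to 4. It had 218, 171, 299 and 358 CPM in Eos- Treg replicates 1 to 4. The level was 2.19, 3.09, 3.26 and 3.94 CPM in replicates 1 to 4 of Tconv. None of the 3 populations overlapped with another, and the lowest Eos+ Treg library lay just above the highest Eos- Treg library. The level was 1.82-fold higher in Eos+ than in Eos- Tregs (log2 change 0.86 ± 0.21, SE, adjusted p = 0.0145 by edgeR's quasi-likelihood test), higher in 4 of 4 replicate numbers. Against Tconv it was 151-fold higher in Eos+ Tregs (adjusted p = 5.71e-09) and 83.2-fold higher in Eos- Tregs (adjusted p = 3.35e-08). The difference between Eos+ and Eos- Tregs no longer passed when all libraries numbered 2 (adjusted p = 0.0955) or all numbered 3 (adjusted p = 0.0846) were left out.

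Itgb8 (ENSMUSG00000025321.14, chromosome 12, 119158022 to 119238802, minus strand), the beta chain that pairs with the alpha-v chain alone, followed the same order. It had 42.2, 49.3, 53.1 and 48.7 CPM in Eos+ Treg replicates 1 to 4, against 14.2, 12.4, 17.4 and 15.5 CPM in Eos- Treg replicates 1 to 4. Tconv held 0.163, 0.461, 0.622 and 0.473 CPM, or 56 counts over the 4 libraries. The Eos+ Treg level was 3.26-fold that of Eos- Tregs (log2 change 1.70 ± 0.22, SE, adjusted p = 0.000215) and 111-fold that of Tconv (adjusted p = 7.78e-09). Eos- Tregs stood 34.1-fold above Tconv (adjusted p = 1.43e-07), and the 3 populations did not overlap.

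Itgav (ENSMUSG00000027087.11, chromosome 2, 83724397 to 83806916, plus strand) encodes the alpha-v chain, a partner of several beta chains. It had 60.8, 38.2, 64.5 and 65.9 CPM in Eos+ Treg replicates 1 to 4, against 25.1, 25.3, 29.9 and 29.9 CPM in Eos- Treg replicates 1 to 4. The level was 15.9, 16.5, 18.6 and 14.4 CPM in replicates 1 to 4 of Tconv. Eos+ Treg replicate 2 was the low library of its population, though above every Eos- Treg library. Eos+ Tregs were 2.08-fold above Eos- Tregs (log2 change 1.06 ± 0.16, SE, adjusted p = 0.00078) and 3.51-fold above Tconv (adjusted p = 3.85e-06). Eos- Tregs were 1.69-fold above Tconv (adjusted p = 0.00749), which no longer passed once the libraries numbered 4 were left out (adjusted p = 0.0654). Expected counts of Itgav were not whole in 9 of 12 libraries, and its exons overlap the antisense transcript Gm13684 (0.313 to 3.08 CPM), from which an unstranded library cannot tell it apart.

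**Figure D1:**
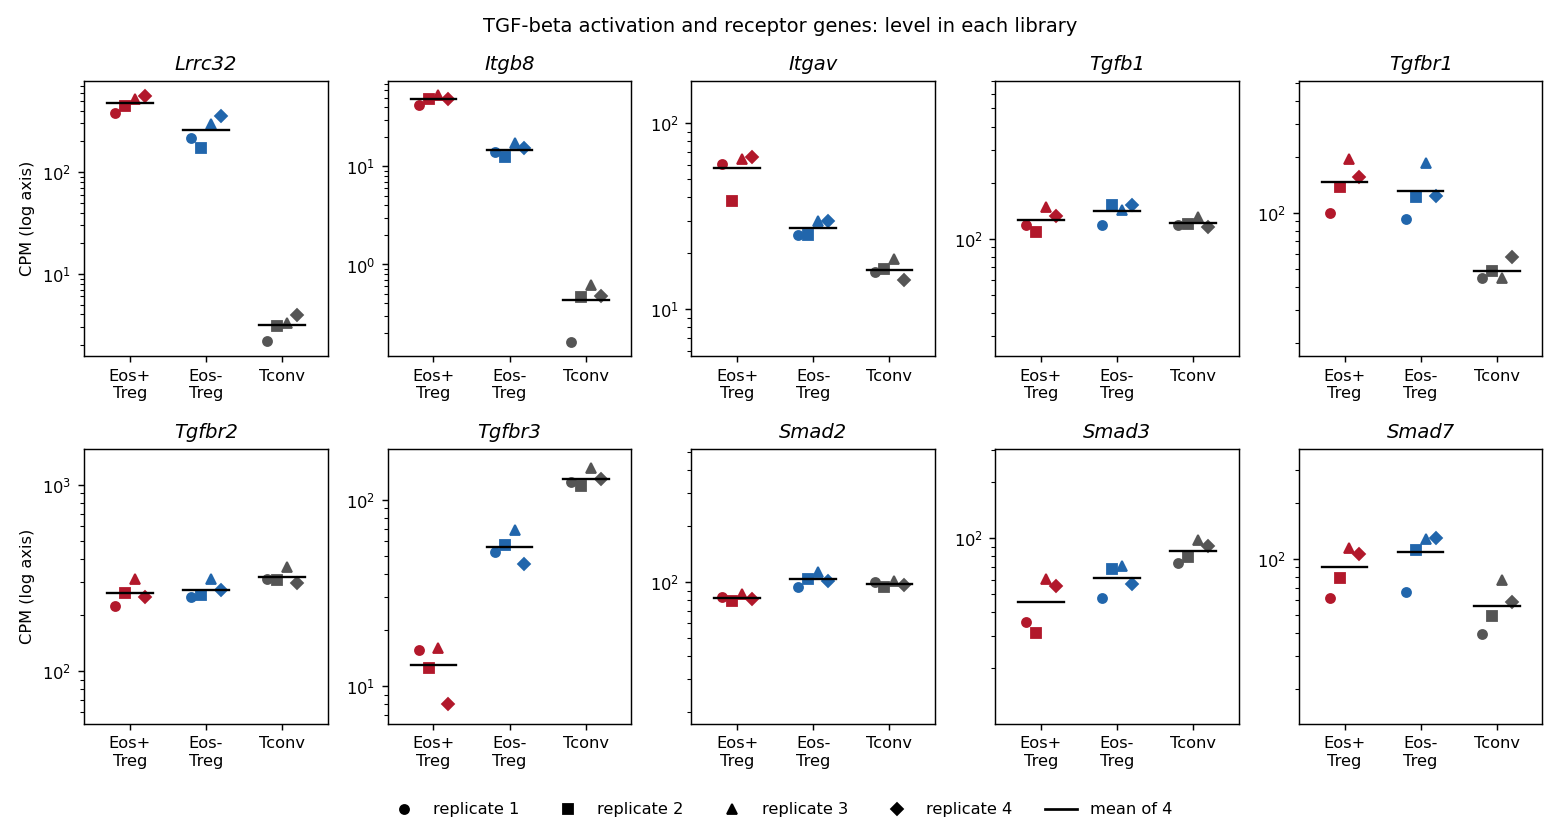
Level of each of the 10 genes in each library, in CPM on a log axis whose range differs between panels; colours mark Eos+ Tregs, Eos- Tregs and Tconv, symbols the replicate number, and bars the mean of 4 libraries. Lrrc32, Itgb8 and Itgav stand in 3 separate steps from Eos+ Tregs down to Tconv, and Tgfbr3 in the opposite steps, from 7.98 to 16.0 CPM in Eos+ Tregs up to 118 to 148 CPM in Tconv.

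The start regions of Itgb8, Itgav and Tgfbr1 are printed below and were not compared as sequences. These are the 3 genes of this group that were higher in both Treg populations than in Tconv and have an entry in the RefSeq promoter table (GRCm38.p6). Entries matched 6 of the 10 genes; Lrrc32, Tgfbr3, Smad2 and Smad7 were not matched. Each window runs from 250 bases before to 50 bases after the RefSeq start, on the strand of the gene. Capitals mark matches to CAGACA, a core of Smad binding sites, or GGGCGG, the GC box, on either strand.
Itgb8, chr12:119238227-119238526, minus strand: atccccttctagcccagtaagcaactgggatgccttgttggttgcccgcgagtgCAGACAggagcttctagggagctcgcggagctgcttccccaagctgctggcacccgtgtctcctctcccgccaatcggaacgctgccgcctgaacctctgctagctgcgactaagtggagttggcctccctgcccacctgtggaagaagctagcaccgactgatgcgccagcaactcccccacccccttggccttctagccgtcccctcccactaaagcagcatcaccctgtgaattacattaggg
Itgav, chr2:83724147-83724446, plus strand: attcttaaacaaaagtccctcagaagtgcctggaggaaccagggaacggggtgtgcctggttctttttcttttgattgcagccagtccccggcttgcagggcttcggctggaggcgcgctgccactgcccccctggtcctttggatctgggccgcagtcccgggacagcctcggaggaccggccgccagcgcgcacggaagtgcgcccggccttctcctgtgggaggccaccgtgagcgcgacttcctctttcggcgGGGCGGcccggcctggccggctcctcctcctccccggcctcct
Tgfbr1 (first start), chr4:47352972-47353271, plus strand: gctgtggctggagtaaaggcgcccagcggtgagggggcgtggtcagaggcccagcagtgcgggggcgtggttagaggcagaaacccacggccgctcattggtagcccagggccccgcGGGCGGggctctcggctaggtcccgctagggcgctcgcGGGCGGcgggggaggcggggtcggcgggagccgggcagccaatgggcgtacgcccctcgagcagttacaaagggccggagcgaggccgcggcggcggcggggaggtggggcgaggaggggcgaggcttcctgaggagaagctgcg
The Itgb8 window held 1 CAGACA match, starting at base -196 from the RefSeq start, and no GC box. That RefSeq start lies 526 bases inside the gene's first base in the GENCODE M21 annotation, so the window does not lie before that base. The Itgav window held 1 GC box, at base 8 after the start, and the Tgfbr1 window 2 GC boxes, at bases -133 and -95; neither held CAGACA. The table holds another Tgfbr1 start, not printed here (chr4:47385966-47386265), whose window had 1 CAGACA match at base -203 and no GC box. The forkhead motif TGTTTAC, searched because Foxp3 is a forkhead factor, was in none of these windows on either strand. For scale, CAGACA occurs in 21.0%, GGGCGG in 35.7% and TGTTTAC in 3.6% of the 32851 windows of the table. Their GC content was 60.7% for Itgb8, 67.3% for Itgav and 74.7% for the first start of Tgfbr1, against a median of 52.7% over the table. These matches are letters in a window and were not tested as binding sites.

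The ligand gene was not called in any comparison. Tgfb1 (ENSMUSG00000002603.15, chromosome 7, 25687002 to 25705077, plus strand), which encodes TGF-beta 1, had 119, 108, 147 and 132 CPM in Eos+ Treg replicates 1 to 4, against 118, 152, 142 and 151 CPM in Eos- Treg replicates 1 to 4. The level was 118, 120, 131 and 115 CPM in replicates 1 to 4 of Tconv. The 3 populations overlapped throughout, and edgeR called no pair of them. The interval of the fold was 0.766 to 1.05 for Eos+ over Eos- Tregs (adjusted p = 0.375), 0.893 to 1.23 for Eos+ Tregs over Tconv (adjusted p = 0.70) and 0.993 to 1.37 for Eos- Tregs over Tconv (adjusted p = 0.20). Within a library, the level of Lrrc32 per kilobase of exon was 4.04 ± 0.53 times that of Tgfb1 in Eos+ Tregs, 2.00 ± 0.58 times that in Eos- Tregs and 0.0279 ± 0.0070 times that in Tconv (SD, n = 4 each). With the longest transcript as the length, Lrrc32 stood at 2.11 ± 0.28 times Tgfb1 in Eos+ Tregs and, with libraries on either side of equality, at 1.05 ± 0.30 times in Eos- Tregs, and at 0.0146 ± 0.0036 times in Tconv (SD, n = 4 each).

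The 3 receptor genes went 3 ways. The type I receptor gene Tgfbr1 was higher in both Treg populations than in Tconv. The type II receptor gene Tgfbr2 was not called in the edgeR fit without a block. With the replicate number as a block it was called slightly lower in both Treg populations than in Tconv. The gene of the coreceptor betaglycan, Tgfbr3, was several-fold lower in Tregs and lowest in Eos+ Tregs. Tgfbr1 (ENSMUSG00000007613.15, chromosome 4, 47353222 to 47414931, plus strand), the kinase that phosphorylates Smad2 and Smad3, had 99.0, 138, 194 and 156 CPM in Eos+ Treg replicates 1 to 4, against 92.8, 122, 184 and 122 CPM in Eos- Treg replicates 1 to 4. The level was 44.5, 48.4, 44.5 and 57.4 CPM in replicates 1 to 4 of Tconv. All 8 Treg libraries lay above all 4 Tconv libraries, and the 2 Treg populations overlapped almost fully. Tgfbr1 was 3.01-fold above Tconv in Eos+ Tregs (log2 change 1.59 ± 0.22, SE, adjusted p = 0.000102) and 2.67-fold in Eos- Tregs (log2 change 1.42 ± 0.22, SE, adjusted p = 0.000725). Between Eos+ and Eos- Tregs it was not called, with an interval of 0.82-fold to 1.55-fold (adjusted p = 0.652), although the Eos+ Treg library was the higher in 4 of 4 replicate numbers. In both Treg populations the library numbered 1 was the lowest and the library numbered 3 the highest.

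Tgfbr2 (ENSMUSG00000032440.13, chromosome 9, 116084293 to 116175360, minus strand), the receptor chain that first binds the ligand, had 225, 263, 313 and 250 CPM in Eos+ Treg replicates 1 to 4, against 250, 255, 314 and 274 CPM in Eos- Treg replicates 1 to 4. The level was 311, 310, 362 and 297 CPM in replicates 1 to 4 of Tconv. Within every replicate number both Treg libraries were below the Tconv library, while the ranges of the populations overlapped. The fold was 0.822 for Eos+ Tregs over Tconv (interval 0.698 to 0.967, adjusted p = 0.0668) and 0.854 for Eos- Tregs over Tconv (interval 0.726 to 1.01, adjusted p = 0.196), neither of them called. With the replicate number as a block both were called lower (adjusted p = 0.00367 in Eos+ Tregs and 0.0214 in Eos- Tregs), and Eos+ Tregs were also called lower by DESeq2, with upper-quartile scaling, and without Eos+ Treg replicate 3 or all libraries numbered 3 (adjusted p = 0.017 to 0.0461). Eos+ over Eos- Tregs stood at 0.962-fold, with an interval of 0.817 to 1.13 (adjusted p = 0.791).

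Tgfbr3 (ENSMUSG00000029287.14, chromosome 5, 107106570 to 107289629, minus strand) encodes betaglycan, which presents TGF-beta to the type II receptor. It had 15.5, 12.6, 16.0 and 7.98 CPM in Eos+ Treg replicates 1 to 4, against 52.6, 56.9, 68.8 and 45.2 CPM in Eos- Treg replicates 1 to 4. The level was 124, 118, 148 and 130 CPM in replicates 1 to 4 of Tconv. The 3 populations lay apart from each other, in the reverse of the order seen for Lrrc32, Itgb8 and Itgav. Eos+ Tregs were 4.29-fold below Eos- Tregs (log2 change -2.10 ± 0.20, SE, adjusted p = 2.02e-05) and 9.99-fold below Tconv (log2 change -3.32 ± 0.21, SE, adjusted p = 1.51e-07). Eos- Tregs were 2.33-fold below Tconv (log2 change -1.22 ± 0.19, SE, adjusted p = 0.000822). Its expected counts were not whole in 11 of 12 libraries, and its exons overlap those of Gm43422, which held 0 to 4.75 CPM.

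The ratios of the receptor transcripts, which were not tested, lay apart between Tregs and Tconv. Between the 2 Treg populations only Tgfbr3 over Tgfbr2 lay apart. Tgfbr1 over Tgfbr2 overlapped there, at 0.552 to 0.780 in Eos+ Tregs and 0.465 to 0.736 in Eos- Tregs. Per kilobase of exon and within a library, Tgfbr1 stood at 0.692 ± 0.110 of Tgfbr2 in Eos+ Tregs, at 0.59 ± 0.112 of it in Eos- Tregs and at 0.193 ± 0.037 of it in Tconv (SD, n = 4 each). Tgfbr3 stood at 0.0625 ± 0.019 of Tgfbr2 in Eos+ Tregs, at 0.256 ± 0.034 of it in Eos- Tregs and at 0.509 ± 0.028 of it in Tconv (SD, n = 4 each). In Tconv libraries the coreceptor transcript thus outnumbered that of the type I receptor, and in Treg libraries the reverse held. Such ratios do not depend on the scaling of the libraries, and they compare transcripts, not receptor proteins.

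**Figure D2:**
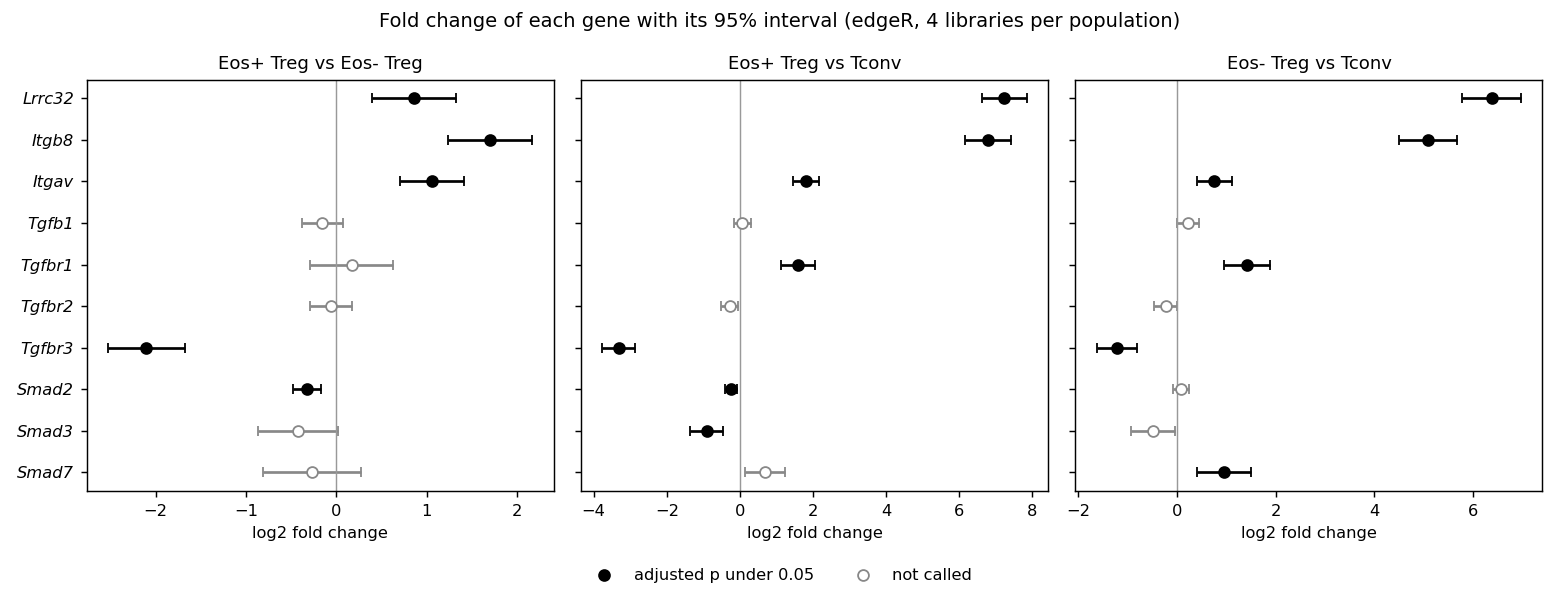
Log2 fold change of each of the 10 genes in the 3 comparisons, with 95% intervals from the edgeR fit; filled points passed an adjusted p of 0.05 and horizontal axes differ between panels. Lrrc32 and Itgb8 stand between 5.09 and 7.24 against Tconv, and Tgfbr3 is negative in each panel. Tgfb1 and Tgfbr2 are unfilled in each panel, with Tgfbr2 below 0 in each. The fit shown has no replicate block.

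Of the Smad genes, which carry the signal from the receptors, the receptor-activated Smad2 and Smad3 were lower in Eos+ Tregs than in Tconv, and the inhibitory Smad7 was higher in Eos- Tregs than in Tconv. Smad2 (ENSMUSG00000024563.16, chromosome 18, 76241580 to 76310963, plus strand) had 83.6, 79.3, 86.2 and 80.9 CPM in Eos+ Treg replicates 1 to 4, against 94.2, 104, 113 and 102 CPM in Eos- Treg replicates 1 to 4. The level was 100.1, 94.0, 101 and 95.9 CPM in replicates 1 to 4 of Tconv. The spread within a population was small, and all Eos+ Treg libraries lay below all others. The change was correspondingly small, 1.25-fold lower than in Eos- Tregs (log2 change -0.33 ± 0.07, SE, adjusted p = 0.00797) and 1.19-fold lower than in Tconv (log2 change -0.25 ± 0.07, SE, adjusted p = 0.0209). The first call failed once the libraries numbered 2 were left out (adjusted p = 0.0832). The second was lost without a filter on low counts, without Eos+ Treg replicate 2, without Tconv replicate 1 or 3, and without all libraries numbered 1, 2 or 4 (adjusted p = 0.0515 to 0.103). Eos- Tregs and Tconv were not told apart (fold 1.06, interval 0.948 to 1.179, adjusted p = 0.535).

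Smad3 (ENSMUSG00000032402.12, chromosome 9, 63646767 to 63757994, minus strand), the partner of Smad2 that binds DNA directly, had 35.5, 31.0, 60.6 and 55.3 CPM in Eos+ Treg replicates 1 to 4, against 47.9, 68.9, 70.8 and 56.7 CPM in Eos- Treg replicates 1 to 4. The level was 73.9, 79.6, 98.3 and 91.2 CPM in replicates 1 to 4 of Tconv. Every Treg library was below every Tconv library. Eos+ Tregs were 1.88-fold below Tconv (log2 change -0.91 ± 0.20, SE, adjusted p = 0.00427). Eos- Tregs were 1.4-fold below Tconv without passing (log2 change -0.49 ± 0.20, SE, adjusted p = 0.133), and passed with the replicate block (adjusted p = 0.0399) and in a fit of these 8 libraries alone (adjusted p = 0.0421). Eos+ Tregs against Eos- Tregs gave a fold of 0.746 (interval 0.55 to 1.01, adjusted p = 0.191), with the Eos+ Treg library the lower in 4 of 4 replicate numbers.

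Smad7 (ENSMUSG00000025880.11, chromosome 18, 75367529 to 75395935, plus strand) is itself induced by TGF-beta in many cells and blocks the type I receptor. It had 61.6, 78.9, 114 and 107 CPM in Eos+ Treg replicates 1 to 4, against 66.4, 112, 127 and 129 CPM in Eos- Treg replicates 1 to 4. The level was 39.3, 49.4, 77.0 and 58.3 CPM in replicates 1 to 4 of Tconv. The library numbered 1 was the lowest of each population, and the populations overlapped. Eos- Tregs were 1.94-fold above Tconv (log2 change 0.96 ± 0.25, SE, adjusted p = 0.0223), and Eos+ Tregs 1.61-fold above Tconv without passing (log2 change 0.69 ± 0.25, SE, adjusted p = 0.0548). With the replicate block Eos+ Tregs passed too (adjusted p = 0.000203), as they did by DESeq2, in a fit of the 8 libraries alone, and without Eos+ Treg replicate 1, Tconv replicate 3 or all libraries numbered 1 (adjusted p = 0.0136 to 0.0474). The Eos- Treg call was lost without a filter on low counts (adjusted p = 0.0513), without any of Eos- Treg replicates 2 to 4 or Tconv replicates 1 and 2, and without the libraries numbered 2 or 4 (adjusted p = 0.0524 to 0.151 by edgeR). Eos+ over Eos- Tregs stood at 0.831-fold (interval 0.571 to 1.21, adjusted p = 0.534). Within a library, Smad7 per kilobase was 2.48 ± 0.44 times Smad3 in Eos+ Tregs, 2.17 ± 0.46 times in Eos- Tregs and 0.789 ± 0.128 times in Tconv (SD, n = 4 each), and the lowest Treg value, 1.70, lay above the highest Tconv value, 0.96.

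**Figure D3:**
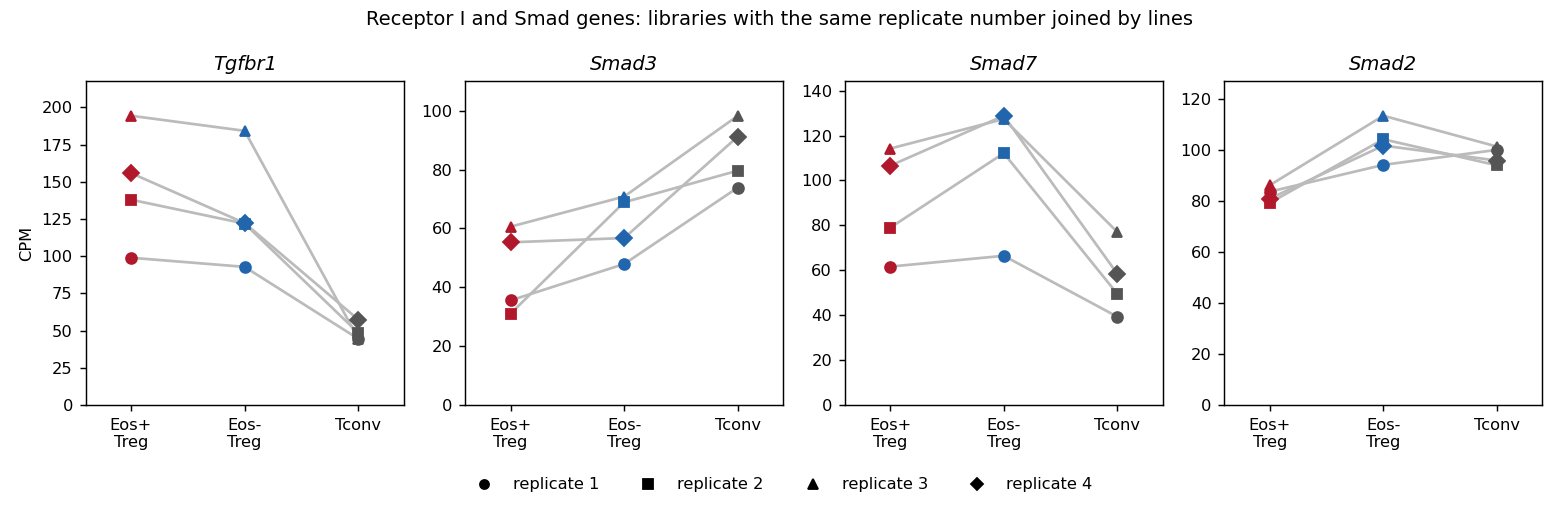
Level in CPM of Tgfbr1, Smad3, Smad7 and Smad2 in each library, with lines joining libraries of the same replicate number; vertical axes start at 0. The Smad7 line of number 1 is at the bottom, at 61.6 CPM in Eos+ Tregs, 66.4 CPM in Eos- Tregs and 39.3 CPM in Tconv, while every Smad2 line is lowest in Eos+ Tregs.

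In all, 3 of the 10 genes were called higher and 2 lower in Eos+ than in Eos- Tregs, where 9.95% of the 15361 genes tested were called higher and 6.46% lower (16.4% in either direction). For Eos+ Tregs against Tconv, 4 were higher and 3 lower, where 17.4% of all genes tested were higher and 13.1% lower (30.5% in either direction). For Eos- Tregs against Tconv, 5 were higher and 1 lower, where 8.89% were higher and 5.98% lower (14.9% in either direction). These calls and shares are from the fit without a replicate block. With the block, Tgfbr2 was also called lower and Smad7 higher in Eos+ Tregs than in Tconv. Tgfbr2 and Smad3 were then also called lower in Eos- Tregs than in Tconv. The libraries did not overlap for 3 genes that were higher and 2 that were lower in Eos+ than in Eos- Tregs, where this held for 12.1% and 7.86% of all genes tested (20.0% in either direction). Against Tconv it held for 4 genes higher and 3 lower in Eos+ Tregs, beside 18.5% and 14.6% of all genes tested (33.1% in either direction). In Eos- Tregs it held for 4 genes higher and 2 lower than in Tconv, beside 10.5% and 9.64% (20.1% in either direction). The median log2 change of the 10 genes was -0.11, 0.38 and 0.49 in these comparisons, against medians of 0.0027, -0.0075 and -0.012 over all genes tested. Among all genes tested, 0.716% had a larger log2 change in size than Lrrc32 for Eos+ Tregs against Tconv, and 0.312% for Eos- Tregs against Tconv; for Itgb8 these shares were 0.924% and 0.781%. The 3 comparisons share their libraries pairwise, so they are not separate evidence. The 10 genes, like the pathway list and markers below, were chosen with earlier results of these data known. Their counts beside the shares of all genes are thus a description, not a test.

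Markers of other cells were measured in the same libraries. The summed level of 6 B cell markers was 39.0 to 150 CPM in Eos+ Tregs, 3.53 to 25.5 CPM in Eos- Tregs and 8.31 to 50.5 CPM in Tconv. That of 8 dendritic cell and macrophage markers was 15.9 to 109 CPM in Eos+ Tregs, 1.90 to 62.1 CPM in Eos- Tregs and 7.56 to 42.0 CPM in Tconv. For 6 thymic epithelial markers, most of it Epcam, it was 23.4 to 39.0 CPM in Eos+ Tregs, 10.9 to 15.2 CPM in Eos- Tregs and 6.28 to 8.96 CPM in Tconv. The part of these cells in the differences between Eos+ and Eos- Tregs was not tested. For 6 markers of CD8, NK and gamma-delta T cells it was 17.6 to 48.4 CPM in Eos+ Tregs, 33.3 to 73.5 CPM in Eos- Tregs and 65.8 to 160 CPM in Tconv, and their part was not tested either. The 7 endothelial and stromal markers summed to 1.00 to 6.18 CPM in Eos+ Tregs, 0.691 to 2.22 CPM in Eos- Tregs and 0.390 to 3.33 CPM in Tconv. Among them, Col1a2 held 0.603 to 5.30 CPM in Eos+ Tregs, at most 0.775 CPM in Eos- Tregs and no count in Tconv. For Eos+ Tregs against Tconv, 1 of the 4 tested was called higher and 1 lower, beside 17.4% and 13.1% of all genes. The part of such cells was not tested. Platelets also carry GARP and TGF-beta 1; the 5 megakaryocyte and platelet markers summed to 0.875 to 1.78 CPM in Eos+ Tregs, 1.52 to 3.16 CPM in Eos- Tregs and 0 to 1.62 CPM in Tconv, and Gp1bb had no count in any library after rounding.

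Scaled by exon length, so that genes can be ranked against each other, the order of the 10 genes was led by Lrrc32 in Tregs and by Tgfbr2 in Tconv. Lrrc32 stood at 101 ± 17.4 CPM per kilobase of merged exons in Eos+ Tregs and 55.7 ± 17.8 in Eos- Tregs, and at 0.666 ± 0.154, the ninth place, in Tconv (SD, n = 4 each). In Eos+ Tregs it was followed by Tgfbr2 (32.1 ± 4.54), Tgfb1 (25.1 ± 3.34), Tgfbr1 (22.5 ± 6.07) and Smad7 (20.0 ± 5.40 CPM per kilobase, SD, n = 4), neighbours whose ranges overlapped. Smad2, Smad3, Itgav and Itgb8 came next, at 9.40, 8.23, 5.34 and 4.37 CPM per kilobase, each overlapping its neighbour, and Tgfbr3 was last at 1.99. In Eos- Tregs the ranges of Lrrc32 and Tgfbr2 overlapped, and Itgb8 was last at 1.34 CPM per kilobase. In Tconv the first places went to Tgfbr2 (39.1 ± 3.52), Tgfb1 (23.97 ± 1.44) and Tgfbr3 (19.9 ± 1.93 CPM per kilobase, SD, n = 4), which did not overlap, and Itgb8 was last at 0.0389. Scaled by the longest transcript instead, Tgfb1 moved up to 49.1 CPM per kilobase in Eos+ Tregs, 54.7 per kilobase in Eos- Tregs and 47.0 per kilobase in Tconv, ahead of Tgfbr2 in each population.

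**Figure D4:**
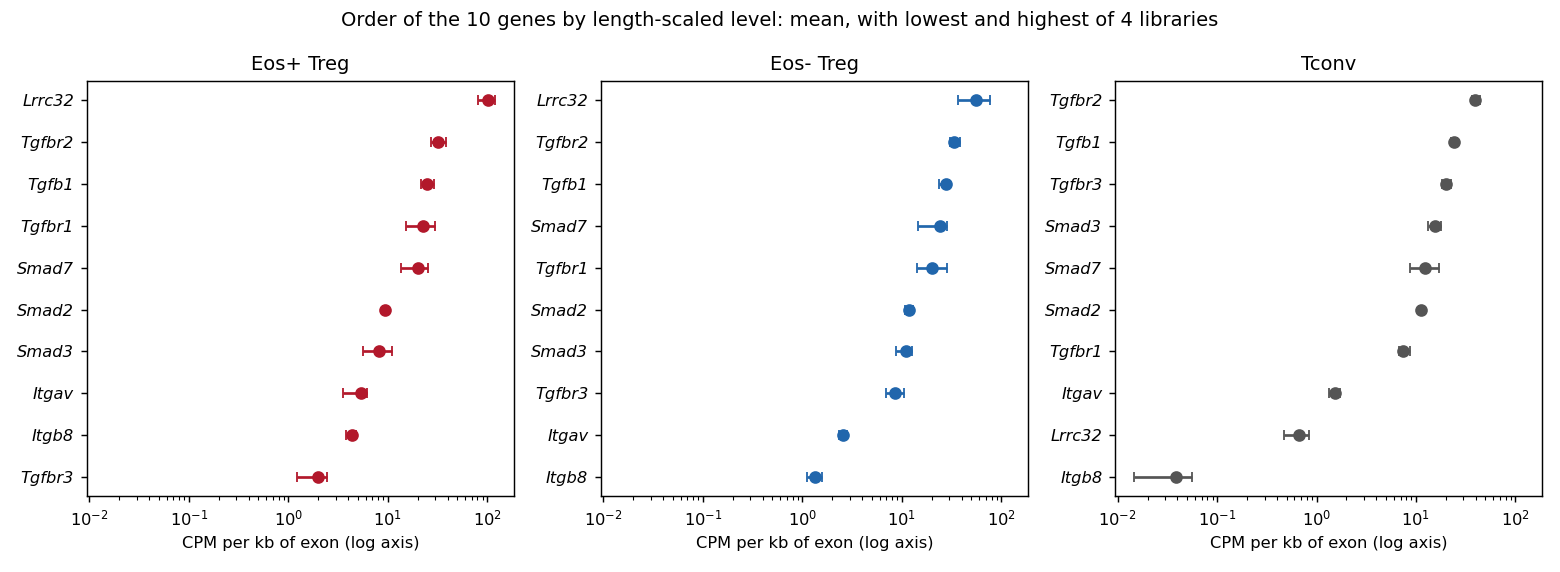
Mean level of the 10 genes in CPM per kilobase of merged exons, on a log axis shared by the 3 panels, ordered from highest to lowest within Eos+ Tregs, Eos- Tregs and Tconv; bars run from the lowest to the highest of 4 libraries. Lrrc32 holds the first place in both Treg panels and the ninth in Tconv, and Tgfbr3 is last in Eos+ Tregs and at place 3 in Tconv.

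The genes whose profile over the 12 libraries was most like that of 3 members were found among 8617 genes with a mean of at least 10 CPM, by the root mean square difference of log2 levels after centring each gene on its mean. The nearest gene to Lrrc32 was Itgb8, and the nearest to Itgb8 was Lrrc32, with a difference of 0.61. Lrrc32 was next nearest to Il2ra (1.01), Rln3 (1.06) and Ctla4 (1.08), where the median gene searched stood at 3.25. Itgb8 was next nearest to Sdc4 (0.75), Flicr (0.84) and Cd83 (0.87), with a median of 2.90. Sdc4, a cell surface proteoglycan, was 66.6 ± 16.5 CPM in Eos+ Tregs, 12.4 ± 4.13 CPM in Eos- Tregs and 1.05 ± 0.29 CPM in Tconv (SD, n = 4 each). Tgfbr3 was nearest to Itgb3 (0.34), Rasal1 (0.37), Sema4a (0.39) and Jup (0.39), with a median of 1.42. Itgb3, another integrin beta chain that pairs with alpha-v, was 25.9 ± 8.58 CPM in Eos+ Tregs, 93.3 ± 18.9 CPM in Eos- Tregs and 308 ± 40.5 CPM in Tconv (SD, n = 4 each). These differences describe likeness only.

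Of 58 other genes of the pathway, 50 passed the filter on low counts. In Eos+ against Eos- Tregs 6 of them rose and 7 fell, beside 9.95% and 6.46% of all genes tested. In Eos+ Tregs against Tconv 13 rose and 12 fell, beside 17.4% and 13.1% of all genes tested. In Eos- Tregs against Tconv 6 rose and 5 fell, beside 8.89% and 5.98% of all genes tested. With the replicate block, the fallen genes in the first comparison numbered 12, and those in the last comparison numbered 10 higher and 8 lower. The median log2 change of the 50 genes was -0.04, -0.02 and 0.05 (0.06 with the genes of at most 3 counts in a population set at 3 counts), close to that of all genes tested.

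Of 8 tested genes of latency and activation other than the 10, 2 were higher and 1 lower in Eos+ than in Eos- Tregs. For Eos+ Tregs against Tconv 3 were higher and 1 lower, and for Eos- Tregs against Tconv 1 was higher and none lower. Of all genes tested, 9.95% and 6.46%, 17.4% and 13.1%, and 8.89% and 5.98% were called higher and lower in these comparisons. The genes tested here and in the list of 50 include Thbs1, which had counts in Eos+ Tregs alone. It thus passed the filter only through the population where it is high. Of the 2 genes higher in Eos+ than in Eos- Tregs, only Furin reached a mean of 10 CPM. Furin, the protease that cuts the TGF-beta precursor, stood at 82.4, 71.3, 123 and 90.9 CPM in Eos+ Treg replicates 1 to 4, against 49.0, 61.2, 68.9 and 69.5 CPM in Eos- Treg replicates 1 to 4. It was 1.48-fold higher in Eos+ Tregs (adjusted p = 0.0485), a call lost on leaving out any library of the 2 Treg populations except Eos+ Treg replicate 2, and any replicate number (adjusted p up to 0.148), and in the fit of these 8 libraries alone (adjusted p = 0.0702). Nrros, a relative of GARP that anchors latent TGF-beta on myeloid cells, moved the opposite way to Lrrc32, at 122 CPM in Eos+ Tregs against 171 CPM in Eos- Tregs (means of 4 libraries), 1.4-fold lower (adjusted p = 0.00595). Of the genes below 10 CPM, named after their values were seen, Thbs1, which encodes the TGF-beta activator thrombospondin 1, held 0.861 to 2.7 CPM in Eos+ Tregs and no count in Eos- Tregs or Tconv. Ltbp1, a binding protein of the latent complex, held 2.48 to 7.26 CPM in Eos+ Tregs, 0.655 to 4.49 CPM in Eos- Tregs and at most 0.031 CPM in Tconv. The other ligand genes were scarce, with Tgfb2 at no more than 0.332 CPM and Tgfb3 at no more than 3.84 CPM in any library.

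Among receptors of the wider family, Acvrl1, the type I receptor ALK1, followed Tgfbr3 in being lower in Tregs. It had 6.27, 0.804, 5.66 and 7.45 CPM in Eos+ Treg replicates 1 to 4, against 34.4, 21.4, 18.8 and 13.6 CPM in Eos- Treg replicates 1 to 4. The level was 125, 124, 132 and 124 CPM in replicates 1 to 4 of Tconv. The fall was 4.37-fold against Eos- Tregs (adjusted p = 0.00752; 0.0501 without the libraries numbered 3) and 25.01-fold against Tconv in Eos+ Tregs (adjusted p = 2.1e-05), and 5.72-fold against Tconv in Eos- Tregs (adjusted p = 0.00276). Eng, which encodes endoglin, a relative of betaglycan, was 0.836 ± 0.69 CPM in Eos+ Tregs, 2.25 ± 1.81 CPM in Eos- Tregs and 12.2 ± 4.89 CPM in Tconv (SD, n = 4 each). It was called lower than in Tconv in Eos+ Tregs (14.5-fold, adjusted p = 0.00241) and in Eos- Tregs (5.40-fold, adjusted p = 0.0431). The call in Eos- Tregs was lost without a filter on low counts and on leaving out any 1 of the 8 libraries except Eos- Treg replicate 1, or any replicate number except 1 (adjusted p up to 0.157). Acvr1, Acvr2a, Bmpr1a and Bmpr2, receptors for activins and bone morphogenetic proteins, were called higher in Eos+ Tregs than in Tconv, all at low levels of at most 15.6 CPM. The activin receptor gene Acvr1b was lower, at 2.19 ± 1.00 CPM in Eos+ Tregs, 5.26 ± 1.54 CPM in Eos- Tregs and 6.34 ± 0.97 CPM in Tconv (SD, n = 4 each; adjusted p = 0.0259 against Eos- Tregs and 0.00498 against Tconv). Of 8 such receptors, 4 were called higher and 3 lower in Eos+ Tregs than in Tconv, beside 17.4% and 13.1% of all genes tested. None was called higher and 2 were called lower in Eos+ than in Eos- Tregs, beside 9.95% and 6.46%.

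The common Smad gene Smad4 was 175 ± 16.9 CPM in Eos+ Tregs, 191 ± 14.9 CPM in Eos- Tregs and 176 ± 14.9 CPM in Tconv (SD, n = 4 each) and passed in no comparison. Negative regulators moved in both directions. Ldlrad4, which binds Smad2 and Smad3 and keeps them from the receptor, was 107 ± 12.97 CPM in Eos+ Tregs, 46.8 ± 5.75 CPM in Eos- Tregs and 15.2 ± 0.63 CPM in Tconv (SD, n = 4 each). That was 2.28-fold above Eos- Tregs (adjusted p = 1.93e-05) and 7.01-fold above Tconv (adjusted p = 7.78e-09) in Eos+ Tregs, and 3.08-fold above Tconv in Eos- Tregs (adjusted p = 1.36e-06). Tgif1, a nuclear repressor of Smad targets, was 117 CPM in Eos+ Tregs, 77.5 CPM in Eos- Tregs and 18.5 CPM in Tconv (means of 4 libraries), 6.29-fold above Tconv in Eos+ Tregs (adjusted p = 1.11e-06) and 4.19-fold in Eos- Tregs (adjusted p = 2.61e-05). Pmepa1, a target of TGF-beta that dampens its signal, was 2.17-fold above Tconv in Eos+ Tregs (adjusted p = 1.91e-05) and 1.76-fold in Eos- Tregs (adjusted p = 0.000686). Between Eos+ and Eos- Tregs, neither Tgif1 (adjusted p = 0.0601) nor Pmepa1 (adjusted p = 0.122) passed, and both were called higher in Eos+ Tregs with the replicate block.

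Of the ubiquitin ligases that act with Smad7 or on Smads, Smurf1, Smurf2 and Nedd4l were lower and Wwp1 higher in Eos+ than in Eos- Tregs. Smurf2 was 32.9 ± 7.49 CPM in Eos+ Tregs, 51.2 ± 1.47 CPM in Eos- Tregs and 71.3 ± 6.36 CPM in Tconv (SD, n = 4 each), 1.56-fold below Eos- Tregs (adjusted p = 0.00752) and 2.17-fold below Tconv (adjusted p = 5.97e-05) in Eos+ Tregs. In Eos- Tregs it was 1.39-fold below Tconv (adjusted p = 0.0378), which failed in 10 of 12 fits that left out a library or a replicate number (adjusted p up to 0.161). Smurf1 and Nedd4l were 1.44-fold and 1.71-fold lower in Eos+ than in Eos- Tregs (adjusted p = 0.0138 and 0.00633), and the Smurf1 call was lost without the libraries numbered 2 or 4 (adjusted p = 0.0933 and 0.0735). Wwp1 was 1.42-fold higher (adjusted p = 0.0396), a call lost without a filter on low counts, with upper-quartile scaling, in the fit of 8 libraries and in 9 of 12 fits that left out a library or a replicate number (adjusted p up to 0.232). Ski, a corepressor of Smad targets, was 374 ± 82.3 CPM in Eos+ Tregs, 448 ± 67.5 CPM in Eos- Tregs and 319 ± 49.6 CPM in Tconv (SD, n = 4 each) and passed in no comparison in the edgeR fit. With the replicate block it was called lower in Eos+ than in Eos- Tregs (adjusted p = 0.031) and higher in Eos- Tregs than in Tconv (adjusted p = 0.00165), and DESeq2, limma-voom, upper-quartile scaling, a filter at a mean of 1 CPM and the fit of 8 libraries also called it higher in Eos- Tregs than in Tconv (adjusted p = 0.0161 to 0.0471).

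Fkbp1a, whose protein holds the type I receptor inactive, was 2.02-fold below Tconv in Eos+ Tregs (adjusted p = 0.000281) and 1.8-fold below it in Eos- Tregs (adjusted p = 0.00276). Tgif2, a relative of Tgif1, was 1.4-fold below Eos- Tregs (adjusted p = 0.0341) and 1.94-fold below Tconv (adjusted p = 0.000218) in Eos+ Tregs, and 1.38-fold below Tconv in Eos- Tregs (adjusted p = 0.0422). For Tgif2 the first and the last of these calls failed without a filter on low counts, in the fits of 8 libraries, and in 8 and 10 of the 12 fits that left out a library or a replicate number (adjusted p up to 0.136 and 0.244). Usp11, a deubiquitinase that spares the type I receptor, was 2.5-fold above Tconv in Eos+ Tregs (adjusted p = 0.000161) and 2.03-fold above it in Eos- Tregs (adjusted p = 0.0028). Mmp9, a protease that can release TGF-beta, was 2.64 CPM in Eos+ Tregs against 12.7 CPM in Tconv (means of 4 libraries), 4.8-fold lower (adjusted p = 0.019), which failed without the libraries numbered 2, 3 or 4 (adjusted p = 0.0537 to 0.0928).

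Of 8 genes listed as targets of TGF-beta, 5 were tested. In Eos+ against Eos- Tregs 2 of the 5 were called higher and none lower, beside 9.95% and 6.46% of all genes tested. The 2 were Itgae and Gpr15, genes of T cell homing. Smad7 and Pmepa1, listed under other roles though TGF-beta induces them, were not called in this comparison in the fit without a block. Itgae, the CD103 chain that binds E-cadherin on epithelium, had 252, 317, 421 and 278 CPM in Eos+ Treg replicates 1 to 4, against 42.2, 11.7, 34.3 and 33.7 CPM in Eos- Treg replicates 1 to 4. The level was 11.9, 21.4, 26.4 and 51.4 CPM in replicates 1 to 4 of Tconv. It was 10.4-fold above Eos- Tregs (log2 change 3.38 ± 0.46, SE, adjusted p = 0.000468) and 11.4-fold above Tconv (adjusted p = 0.000116) in Eos+ Tregs. Eos- Tregs and Tconv were not told apart for Itgae (adjusted p = 0.893), unlike for Lrrc32, Itgb8 and Gpr15. Gpr15, a receptor that guides T cells to the colon, was 42.9 to 63.0 CPM in Eos+ Tregs, 2.25 to 3.96 CPM in Eos- Tregs and 0 to 0.497 CPM in Tconv. In Eos+ Tregs it was 17.4-fold above Eos- Tregs (adjusted p = 5.70e-05 by edgeR) and 242-fold above Tconv (adjusted p = 4.27e-07). Gpr15 was also called higher in Eos- Tregs than in Tconv. That held in all 12 fits that left out a library or a replicate number (log2 change 3.18 to 4.76, adjusted p up to 0.00922 by edgeR). Tgfbi, Klf10 and Id1, targets known mostly from other cells, passed in no comparison, and Ccn2 and Cdkn2b did not pass the filter on low counts.

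**Figure D5:**
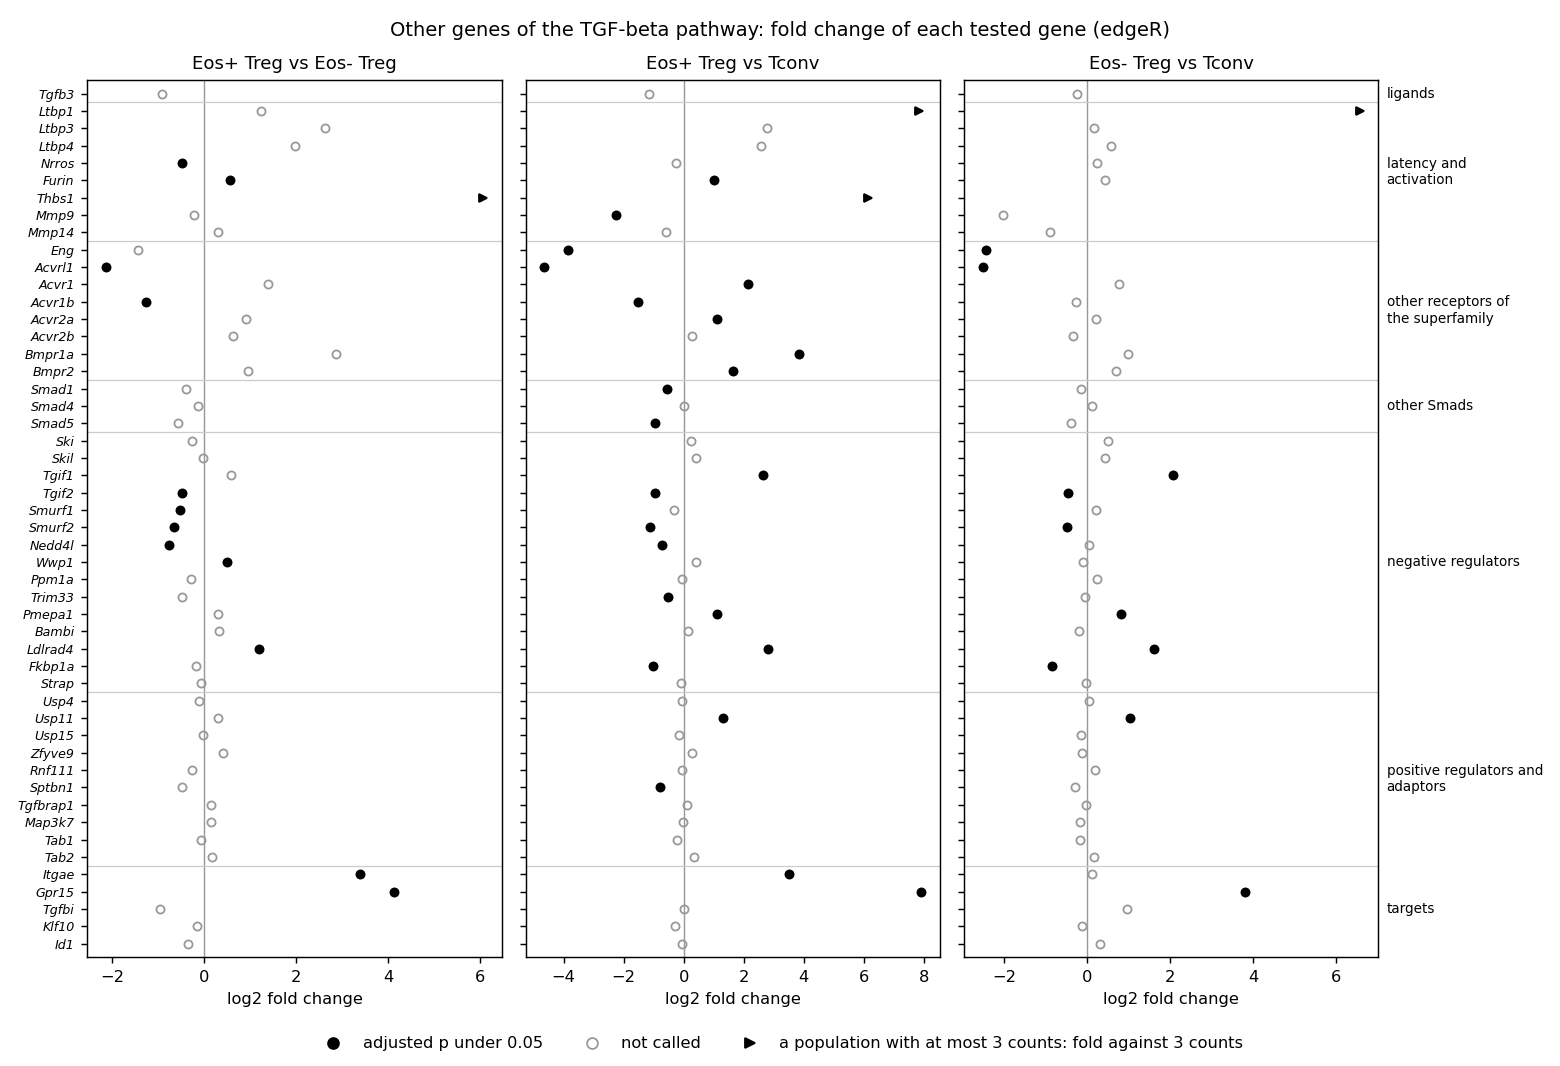
Log2 fold change of the 50 tested genes of the pathway list in the 3 comparisons, grouped by role; filled points passed an adjusted p of 0.05, and arrowheads mark genes with at most 3 counts in a population, plotted against 3 counts. Itgae and Gpr15 stand at 3.38 and 4.12 for Eos+ against Eos- Tregs, and Acvrl1 is the lowest point of that panel at -2.13.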

How the data were processed

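RNA of 12 libraries, 4 per sorted population, was made into cDNA with a template-switching kit and tagmented, per the labels' protocols; this does not mark strand. The deposited values are expected counts per gene from RSEM, not scaled for depth or length; cutadapt 1.18, STAR 2.7.0f, RSEM 1.3.1 and mm10 are named in the submitters' processing notes. After rounding, the expected counts went into edgeR 4.0.16 under R 4.3.3 (robust quasi-likelihood F test, TMM, filterByExpr, 1 mean per population over 12 libraries, 15361 genes), two-sided, with Benjamini-Hochberg adjustment over all genes and a threshold of 0.05. SE is the log2 change over the square root of F, and 95% intervals follow from it. All 55450 gene IDs matched GENCODE M21 (GRCm38), which gave positions and exon lengths. Exons of Ldlrad4, Gpr15, Eng, Acvr2a and Wwp1 overlap those of Fam210a, Cpox, Fpgs, Orc4 and Gm12353, protein-coding genes on the opposite strand. Other genes of the pathway list, such as Acvrl1, overlap antisense transcripts. Reads there cannot be told apart by strand in an unstranded library, and their part in the results was not tested.

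The 10 genes, the pathway list and the markers were chosen with earlier results of these data known. All 10 genes were named. Of the pathway list, up to 6 called genes per comparison and direction were named, by size of change with at least 10 CPM in the higher population, plus Itgae, Gpr15, Smad4 and Ski. Other genes of the list were named after their values were seen. For Lrrc32, Itgb8 and Tgfbr3 the 4 nearest profiles were named, predicted genes left out. Libraries of the same number paired: their deviations from population means correlated at 0.138 to 0.318 over genes (all 12 pairs), against -0.226 to 0.0695 for other numbers. Library names share a tag within a number, whose meaning the labels do not give. No 2 replicates of a population agreed within sampling noise (chi-square per degree of freedom 25.4 to 80.9). Alternatives were the replicate block, RLE and upper-quartile scaling, DESeq2 1.42.0, limma-voom (limma 3.58.1), 2 other filters, fits of 8 libraries, the longest transcript as the length (for ratios, added after seeing the data), and leaving out each library or replicate number. The script was tested on simulated data.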

Additional observations from a re-analysis of the deposited data

Results flagged for a closer look

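In a group of 4 libraries, Acvrl1 in Tconv replicate 3, at 132 CPM, lay apart from the other Tconv libraries, at 124 to 125 CPM. The gap was flagged by its share of the whole range (0.902, above Dixon's 95% critical value for 4 samples). Of the 87 groups examined in this way, 1 was flagged, where chance flags about 1 in 20. The distance is small beside the difference between Tconv and either Treg population.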

How the results depend on the processing

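The counts of called genes moved most when libraries were left out. They ran from 1242 to 2979 for Eos+ against Eos- Tregs (2521 with all libraries), from 3057 to 4376 for Eos+ Tregs against Tconv (4685) and from 1114 to 2914 for Eos- Tregs against Tconv (2284); these fits hold fewer samples. Of the 10 genes, 3 to 5 were higher in Eos- Tregs than in Tconv and 1 to 2 lower in Eos+ than in Eos- Tregs. Of the pathway list, 4 to 10 were lower in Eos+ than in Eos- Tregs and 2 to 5 lower in Eos- Tregs than in Tconv. With the replicate block, 3 of the 10 genes were lower in Eos- Tregs than in Tconv, and with only the 8 libraries compared 2 were, against 1. In the pathway list the block gave 12 genes and DESeq2 11 lower in Eos+ than in Eos- Tregs, against 7. For Eos- Tregs against Tconv the block gave 10 higher, against 6, and 8 lower, against 5, and no filter on low counts gave 3 lower. Beyond the changes given here and in the results, the block changed no other call recomputed. Signs turned only for values that were not called: Tgfbr2 in Eos+ against Eos- Tregs ran from -0.15 to 0.014 (log2), Tgfb1 in Eos+ Tregs against Tconv from -0.017 to 0.13, Smad4 in Eos+ Tregs against Tconv from -0.061 to 0.051, and Itgae in Eos- Tregs against Tconv from -0.32 to 0.61. The cause was not tested. With the longest transcript as the length, the ratio of Lrrc32 to Tgfb1 was lower in each population, as the results give.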
